A study of Mus musculus with 8 samples.

Results

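The Igf2r-Airn imprinted locus of mouse chromosome 17, with its neighbours Slc22a2, Slc22a3 and Plg, was scored against the maps of H3K9me1, H3K9me2 and H3K9me3, the mono-, di- and trimethylated forms of lysine 9 of histone H3. These 5 genes were taken from 55413 annotated genes. The locus was chosen by the width of an H3K9me2 region, since 1 of the widest of that list lies there, and this width is therefore not a result. The maps came from chromatin immunoprecipitation followed by sequencing (ChIP-seq) of mouse embryonic fibroblasts (MEFs) labelled wild type, in 8 samples that formed 4 groups of 2 replicates, namely input and 1 group per mark. In the study the wild-type control is a cultured MEF line with a conditional allele of Eset1, an H3K9 methyltransferase gene that tamoxifen deletes and that is still intact in the control cells. The deposited data held 1 list of enriched regions per mark, with chromosome, start and end, and no height, score or value per replicate.

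It follows that no mean, SD or p-value could be given for any gene, and every value below describes 1 map per mark. Positions alone do not tell the read depth, which is thus unknown here, and the 95% Wilson intervals beside some shares cover counting error only. All region edges lay on a grid of 750 bp bins. The lists hold no expression values, so fibroblast markers could not be checked, and they do not separate the maternal from the paternal copy. Coverage also varied strongly between chromosomes. Chromosome 17 is among the 9 chromosomes with at least 5% of their bases in each list, and values for the members are therefore set beside those of chromosome 17 as well as those of all genes.

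Imprinted genes are expressed from the copy of 1 parent. Igf2r encodes the receptor that carries insulin-like growth factor 2 and mannose 6-phosphate-tagged enzymes to lysosomes, and in most mouse tissues the maternal copy is expressed. Airn is a long non-coding RNA that starts inside Igf2r, runs against it past the Igf2r 5' end, and is transcribed from the paternal copy, where it silences Igf2r. Its start lies at a CpG island that carries DNA methylation on the maternal copy and serves as the imprint control element. Slc22a2 and Slc22a3 encode organic cation transporters and come under the same imprint in the placenta, whereas Plg encodes plasminogen, the liver-made precursor of the clot-dissolving enzyme plasmin. H3K9me2 and H3K9me3 are associated with silent chromatin, and H3K9me1 is the least methylated of the 3 states.

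The start-site sequences are shown because the members divided at these sites, with all 3 marks over the Slc22a2 and Slc22a3 starts and none over the Igf2r 5' end or the Airn start. Each has 300 bases on the strand of the gene (GRCm38.p6), with every CpG in capitals. The promoters are RefSeq entries from 250 bases before to 50 bases after the start, and 4 of the 5 members had one. The last line is the stretch of 300 bases with the most CpG in the interval without H3K9me1 that holds the Airn start.
Slc22a3, chr17:12507655-12507954, minus strand: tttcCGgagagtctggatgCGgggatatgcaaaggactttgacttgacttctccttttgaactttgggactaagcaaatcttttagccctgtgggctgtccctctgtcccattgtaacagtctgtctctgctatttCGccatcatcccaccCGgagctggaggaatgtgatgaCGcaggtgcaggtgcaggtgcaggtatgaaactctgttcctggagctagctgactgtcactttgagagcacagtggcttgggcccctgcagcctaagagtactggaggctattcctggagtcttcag
Slc22a2, chr17:12583939-12584238, plus strand: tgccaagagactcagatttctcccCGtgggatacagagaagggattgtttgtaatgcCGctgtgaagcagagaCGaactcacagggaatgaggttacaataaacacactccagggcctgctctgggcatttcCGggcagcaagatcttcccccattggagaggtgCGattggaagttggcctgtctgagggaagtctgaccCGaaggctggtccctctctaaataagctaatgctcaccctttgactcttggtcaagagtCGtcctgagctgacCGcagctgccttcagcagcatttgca
Igf2r, chr17:12769657-12769956, minus strand: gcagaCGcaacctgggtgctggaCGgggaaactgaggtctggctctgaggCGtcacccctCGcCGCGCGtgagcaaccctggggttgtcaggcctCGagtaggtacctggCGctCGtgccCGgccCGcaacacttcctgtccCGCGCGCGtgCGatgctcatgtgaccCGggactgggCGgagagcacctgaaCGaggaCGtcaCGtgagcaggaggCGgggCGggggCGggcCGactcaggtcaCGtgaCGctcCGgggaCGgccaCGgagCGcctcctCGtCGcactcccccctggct
Airn, chr17:12741061-12741360, plus strand: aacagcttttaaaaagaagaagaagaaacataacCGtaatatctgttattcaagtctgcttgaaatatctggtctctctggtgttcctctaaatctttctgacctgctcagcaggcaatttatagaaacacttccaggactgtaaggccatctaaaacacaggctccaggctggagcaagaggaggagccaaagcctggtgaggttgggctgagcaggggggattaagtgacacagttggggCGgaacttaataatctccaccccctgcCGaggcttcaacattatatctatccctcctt
CpG-dense stretch after the Airn start, chr17:12741732-12742031, plus strand: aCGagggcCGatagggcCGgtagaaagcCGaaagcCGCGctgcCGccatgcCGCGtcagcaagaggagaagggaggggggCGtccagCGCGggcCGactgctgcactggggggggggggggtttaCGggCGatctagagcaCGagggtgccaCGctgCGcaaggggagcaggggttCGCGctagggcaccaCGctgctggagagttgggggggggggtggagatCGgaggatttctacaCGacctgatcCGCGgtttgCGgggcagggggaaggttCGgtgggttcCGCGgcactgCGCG

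The Igf2r promoter held 34 CpG at a GC content of 70.7%, and 7.73% of the 32851 RefSeq promoters held at least as many. The Slc22a2 promoter held 8 CpG and the Slc22a3 promoter 5, against a median of 7 over all promoters. The Airn promoter itself held 3 CpG, and 76.7% of promoters held at least as many. The CpG-dense stretch began 421 bp past the Airn start and held 31 CpG at a GC content of 69.7%. The capitals thus fall densely in the Igf2r promoter and just inside Airn. The 300 bases do not show all nearby CpG, since within 500 bp either side of the 5' end Slc22a3 had 55 CpG, Igf2r 107, Airn 34, Slc22a2 21 and Plg 12. The marked Slc22a3 start was therefore not CpG-poor.

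The members span 481.529 kb of chromosome 17, from the Plg start at 12378608 to the Airn 3' end at 12860136. With flanks of 200 kb the window ran from 12178608 to 13060136 (881.529 kb) and met 35 annotated genes. H3K9me1 covered 90.3% of this window (796.029 kb), H3K9me2 covered 50.7% (447.279 kb) and H3K9me3 covered 48.3% (425.529 kb). On the whole of chromosome 17 the shares were 26.5%, 16.9% and 22.4%. All 3 marks lay on the same bases over 43.9% of the window, against 6.41% of chromosome 17 and 3.70% of the main chromosomes. A further 36.2% of the window carried H3K9me1 alone, and 8.93% carried no mark.

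**Figure D1:**
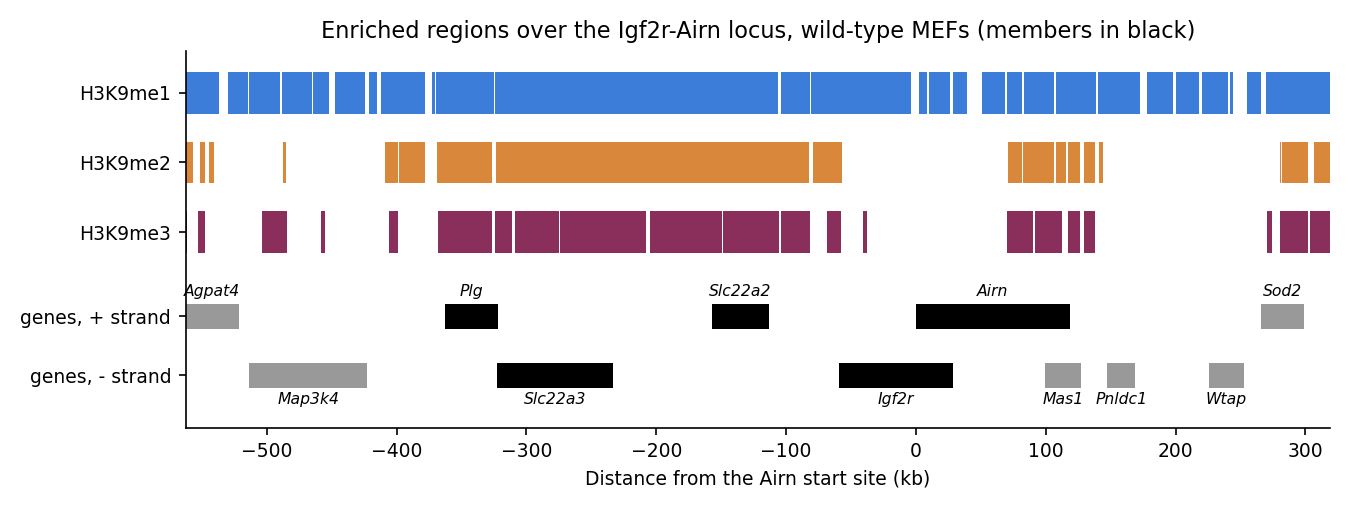
Enriched regions of H3K9me1, H3K9me2 and H3K9me3 (filled blocks, 1 list per mark) and gene spans over the window with 200 kb flanks, by distance from the Airn start site in kb, with the 5 members in black and the labelled neighbours in grey. H3K9me2 and H3K9me3 fill the Plg, Slc22a3 and Slc22a2 side, are nearly absent over Igf2r, and return over the distal part of Airn, whereas H3K9me1 runs through with short breaks.

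The marks were not spread evenly over the window. Between the outer ends of the members H3K9me1 covered 93.6%, H3K9me2 covered 71.5% and H3K9me3 covered 68.1%. In the 200 kb on the Plg side these shares were 86.9%, 25.4% and 20.5%, and in the 200 kb on the Airn side they were 85.8%, 26.1% and 28.4%. The higher H3K9me2 share between the members restates the choice of the locus, since the region it was chosen by supplies 241.5 kb of the 344.279 kb of H3K9me2 there. H3K9me3, which overlaps that region, is not independent of the choice.

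Region widths in the window were larger than on the chromosome as a whole. The 27 H3K9me1 regions had a median width of 20.25 kb, against 4.5 kb on chromosome 17. The 18 H3K9me2 regions had a median of 10.125 kb against 5.25 kb, and the 21 H3K9me3 regions a median of 18.75 kb against 6 kb. The region behind the choice of the locus lay from 12417751 to 12659250 and measured 241.5 kb, which ranked 2 of 29119 H3K9me2 regions, after 1 of 405 kb and before 1 of 227.25 kb. It began 1635 bp before the Plg 3' end and held the whole of Slc22a3 and Slc22a2, ending 30762 bp past the Slc22a2 3' end.

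Within this H3K9me2 region, H3K9me1 covered 99.1% of bases and H3K9me3 covered 96.6%. The 3 marks were together on 96.3% of it. H3K9me1 was of like width there, since a single region ran from 12417001 to 12635250 (218.25 kb) and shared rank 3 of 42704 with 1 other of that width. H3K9me3 lay over the same interval in shorter pieces, 6 in number, and the widest of them measured 66 kb (12467251 to 12533250). The same stretch was thus nearly continuous in 2 lists and divided by narrow gaps in the H3K9me3 list.

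Overlap of the regions was counted where they shared at least 1 bp. All 18 H3K9me2 regions of the window met H3K9me1 (100%, 95% Wilson interval 82.4 to 100%), against 58.6% of the H3K9me2 regions of chromosome 17. All 21 H3K9me3 regions met H3K9me1 (100%, 84.5 to 100%), against 35.4% on the chromosome. H3K9me2 regions met H3K9me3 in 15 of 18 cases (83.3%, 60.8 to 94.2%), against 57.2%, and H3K9me3 regions met H3K9me2 in 18 of 21 cases (85.7%, 65.4 to 95%), against 48.3%. In the other direction, 12 of 27 H3K9me1 regions met H3K9me2 (44.4%, 27.6 to 62.7%) and 13 of 27 met H3K9me3 (48.1%, 30.7 to 66.0%), beside 36.4% and 26.5% on the chromosome. In bases, H3K9me1 and H3K9me2 shared 444.279 kb, which is 99.3% of the H3K9me2 bases and 55.8% of the H3K9me1 bases. H3K9me2 and H3K9me3 shared 388.779 kb, which is 86.9% of the former and 91.4% of the latter. H3K9me2 and H3K9me3 therefore lay almost wholly inside H3K9me1 in this window. These shares come from wide regions in a densely covered window, and no test was run on them.

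The members' gene spans are described next, from the transporters to the imprinted pair. Slc22a3 (ENSMUSG00000023828.3, minus strand, 12418960 to 12507704, 88.745 kb) lay in H3K9me1 and H3K9me2 over 100% and in H3K9me3 over 96.6% of its span. Its remaining 3.38% carried H3K9me1 and H3K9me2. With each gene divided into 10 equal intervals from its 5' end, the gaps in H3K9me3 fell in the 5th interval of Slc22a3 (91.5% covered) and in the 9th (74.6% covered). Slc22a2 (ENSMUSG00000040966.10, plus strand, 12584132 to 12628488, 44.357 kb) was covered to 100%, 100% and 98.3%, and H3K9me3 left a break in its 2nd interval (83.1% covered). Both transporter genes were therefore inside all 3 marks over nearly their whole length.

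The interval between both genes was covered alike. The 76.427 kb between Slc22a3 and Slc22a2 were in H3K9me1 and H3K9me2 over 100% and in H3K9me3 over 96.1%. From the Slc22a3 3' end to the Slc22a2 3' end, H3K9me1 and H3K9me2 were thus unbroken, and H3K9me3 was broken at a few places.

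Plg (ENSMUSG00000059481.5, plus strand, 12378608 to 12419385, 40.778 kb) lay in H3K9me1 over 98.2% of its span, in H3K9me2 over 92.6% and in H3K9me3 over 94.5%. It was fully covered by all 3 marks from its start through the 8th interval. The shortfall lay at its 3' end, where the last interval was covered to 81.6%, 40.1% and 58.5%. There Plg overlaps the 3' end of Slc22a3 on the other strand, from 12418960 on. A break in H3K9me2 lay inside Plg before this overlap, with 1 region ending at 12414750 and the next beginning at 12417751. All annotated exon bases of Plg were covered by each mark.

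Igf2r (ENSMUSG00000023830.14, minus strand, 12682406 to 12769664, 87.259 kb) was covered to 87.8% by H3K9me1 (76.595 kb). H3K9me2 covered 2.69% (2.345 kb) and H3K9me3 covered 5.27% (4.595 kb). H3K9me1 alone accounted for 81.7% of the gene, and 12.2% carried no mark. The H3K9me2 bases lay at the 3' end, where a region from 12662251 to 12684750 ended 2345 bp inside the gene. H3K9me3 lay at that end and in 1 region of 3 kb inside the gene (12700501 to 12703500). Of the merged exon bases, 93.5% lay in H3K9me1, 18.5% in H3K9me2 and 22.9% in H3K9me3. Exons thus carried larger shares of H3K9me2 and H3K9me3 than the gene span, with the H3K9me2 bases all at the 3' end.

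Airn (ENSMUSG00000078247.4, plus strand, 12741311 to 12860136, 118.826 kb) changed along its length. H3K9me1 covered 80.7% of its span, H3K9me2 covered 37.1% and H3K9me3 covered 35.9%. All 3 marks were together on 32.7% of its span, 43.6% carried H3K9me1 alone and 16.8% carried no mark. Its merged exons make up 3.597 kb, of which 96.8% lay in H3K9me1, 88.4% in H3K9me2 and 88.4% in H3K9me3, so that exons alone give more than the span for each mark. H3K9me2 and H3K9me3 were at 0% over the first 5 of its 10 intervals. They covered 3% and 9.31% of the 6th interval, and 93.7% and 100% of the 7th. In the last interval they covered 81.1% and 62.1%. The proximal part of Airn therefore resembled Igf2r, and the distal part resembled the transporter block.

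**Figure D2:**
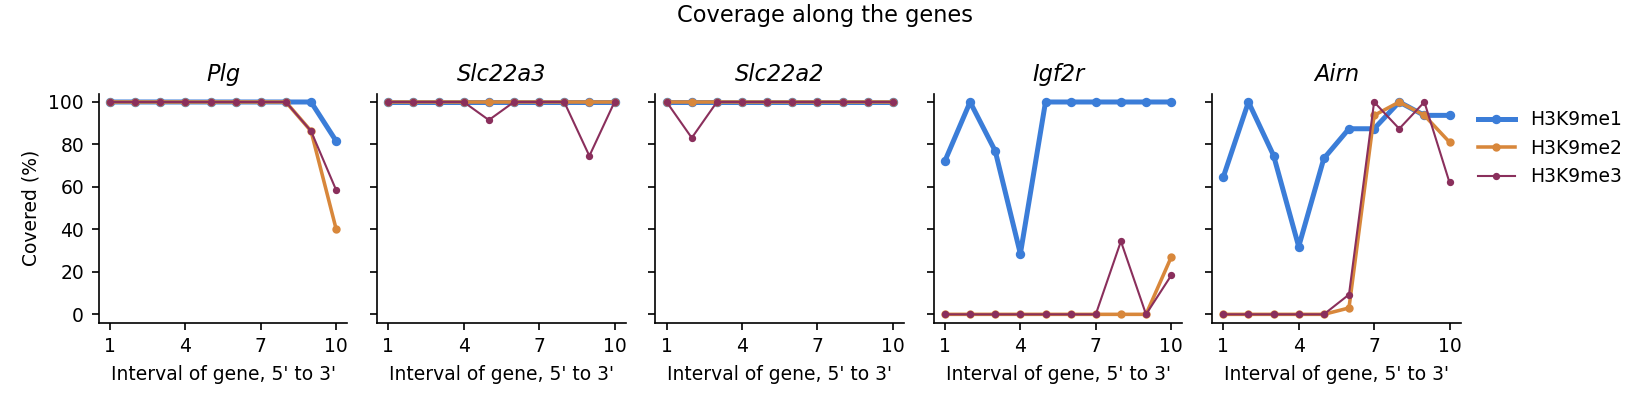
Share (%, vertical axis) of each of 10 equal intervals of the gene that lay in H3K9me1, H3K9me2 or H3K9me3 regions, from the 5' end (1) to the 3' end (10), for the 5 members. Plg, Slc22a3 and Slc22a2 stay near 100% apart from the Plg 3' end, Igf2r has H3K9me1 with H3K9me2 and H3K9me3 only towards its 3' end, and Airn gains H3K9me2 and H3K9me3 from the 7th interval.

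Igf2r and Airn overlap by 28.354 kb. This shared part was covered to 76.7% by H3K9me1, with 0 bases in H3K9me2 and 0 in H3K9me3. The rest of Igf2r (58.905 kb) was covered to 93.1%, 3.98% and 7.80%. The rest of Airn, past the Igf2r 5' end (90.472 kb), was covered to 81.9%, 48.8% and 47.1%. The H3K9me2 and H3K9me3 bases of Airn thus all lay outside Igf2r.

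The longest interval without H3K9me2 between the outer ends of the members ran from 12684751 to 12812250 (127.5 kb). It began 2345 bp inside the Igf2r 3' end and ended 42586 bp past the Igf2r 5' end, at 70939 bp from the Airn start. H3K9me1 covered 81.2% of it and H3K9me3 covered 2.94%, while 18.8% carried no mark. Its GC content was 46.9%, against 45.2% in the widest H3K9me2 region and 42.7% on chromosome 17. It held 11.8 CpG per kb, against 9.95 in the H3K9me2 region, and its soft-masked (repeat) share was 23.5% against 28.8%.

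Gene-span coverage was set beside that of other genes. Over the 5 members the median share was 98.2% for H3K9me1, 92.6% for H3K9me2 and 94.5% for H3K9me3, while the median over all 55413 genes was 0% for each mark. Over the 2331 genes of chromosome 17 the medians were 11.5%, 0% and 0%. At least 50% of the span was covered by H3K9me1 in all 5 members, against 17.3% of all genes and 34.2% of chromosome 17 genes. For H3K9me2 and H3K9me3 this held for Plg, Slc22a3 and Slc22a2, against 9.10% and 9.59% of all genes and 14.3% and 15.7% of chromosome 17 genes. At least 95% of the span was covered by H3K9me1 in Plg, Slc22a3 and Slc22a2, against 8.20% of all genes and 15.5% of chromosome 17 genes. For H3K9me2 and H3K9me3 it was Slc22a3 and Slc22a2, against 5.86% and 6.91% of all genes and 9.78% and 11.5% of chromosome 17 genes. Since the locus was chosen for its H3K9me2, and its genes are neighbours under the same regions, these counts are a description.

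**Figure D3:**
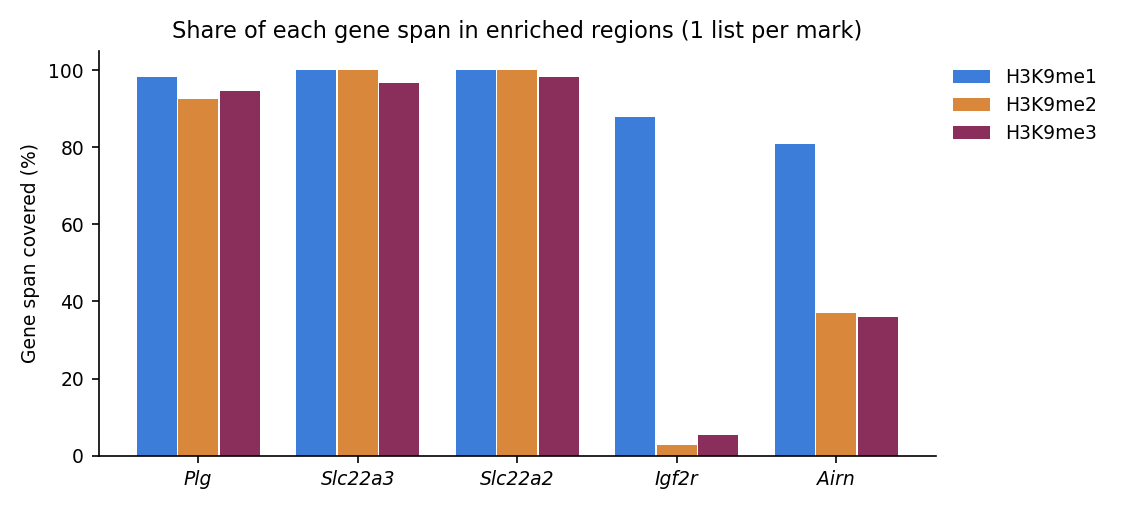
Share of each member's gene span (%, bars from 0) inside H3K9me1, H3K9me2 and H3K9me3 regions, with 1 list per mark and so no error bars. Plg, Slc22a3 and Slc22a2 are above 90% for each mark, Igf2r is at 87.8% for H3K9me1 and near 0 for the others, and Airn is at 80.7%, 37.1% and 35.9%.

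Start sites were scored in windows of 1 kb either side. Counting every annotated start of a gene, 5 of 5 members met H3K9me1, against 21.4% of all genes and 43.5% of chromosome 17 genes. For H3K9me2 it was 4 of 5, against 11.5% and 18.5%, and for H3K9me3 5 of 5, against 12.0% and 19.3%. All 3 marks were found among the starts of 4 of 5 members, against 5.30% of all genes and 6.82% of chromosome 17 genes. This count did not require the marks to share 1 start, although in these 4 members they did. These counts included starts of short inner transcripts. With the 5' end of each gene only, the members met the marks in 4, 3 and 3 cases, against 16.2%, 10.3% and 10.9% of all genes and 32.6%, 16.5% and 17.7% of chromosome 17 genes. An alternative chosen after seeing the data took the start base alone. At the gene 5' end this base was covered in 3 of 5 members for each mark. The shares there were 12.0%, 8.49% and 9.47% of all genes and 24.1%, 13.5% and 15.2% of chromosome 17 genes. Over all annotated starts, a start base was covered in 5, 4 and 5 members. The 3 members marked under every rule were Plg, Slc22a3 and Slc22a2. At all annotated starts of these 3 genes, the 2001 bp of the window lay wholly in each of the 3 marks.

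At the Igf2r 5' end (12769664) the start base was in no region. H3K9me1 met 414 of the 2001 bp of the window, on the side upstream of the gene, and the nearest H3K9me1 region was 587 bp from the start. The nearest H3K9me3 region was 41837 bp away and the nearest H3K9me2 region 42587 bp. An inner start of a processed transcript, Igf2r-203 at 12701279, lay in H3K9me1 over its whole window and in H3K9me3 over 1779 bp. That inner start, and not the 5' end, is why Igf2r was counted among genes with an H3K9me3-marked start. A further inner start, Igf2r-202 at 12750800, met 501 bp of H3K9me1 and had its start base uncovered.

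At the Airn start (12741311) no mark met the window. The nearest H3K9me1 region was 2690 bp away, the nearest H3K9me3 region 37811 bp and the nearest H3K9me2 region 56561 bp. Of the 6 annotated Airn transcripts, 5 began between 12741311 and 12741398, and none of these starts met a mark. The other transcript, Airn-205, began at 12815931 and lay in all 3 marks over its whole window. The distal start thus sat in marked chromatin and the proximal starts in an unmarked interval.

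Both 5' ends of the imprinted pair lay in interruptions of H3K9me1. The interval without H3K9me1 around the Airn start ran from 12737251 to 12744000 (6.75 kb), from 4060 bp before the start to 2689 bp after it. It held 133 CpG, or 19.7 per kb, at a CpG observed-over-expected ratio of 0.332. The interval around the Igf2r 5' end ran from 12767251 to 12770250 (3 kb), from 586 bp upstream to 2413 bp inside the gene. It held 134 CpG, or 44.7 per kb, at a ratio of 0.631. The whole window had 11.8 CpG per kb and a ratio of 0.222. The Igf2r 5' end and the Airn start are 28353 bp apart, and the Igf2r promoter and the CpG-dense stretch after the Airn start, printed above, lie inside these unmarked intervals.

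**Figure D4:**
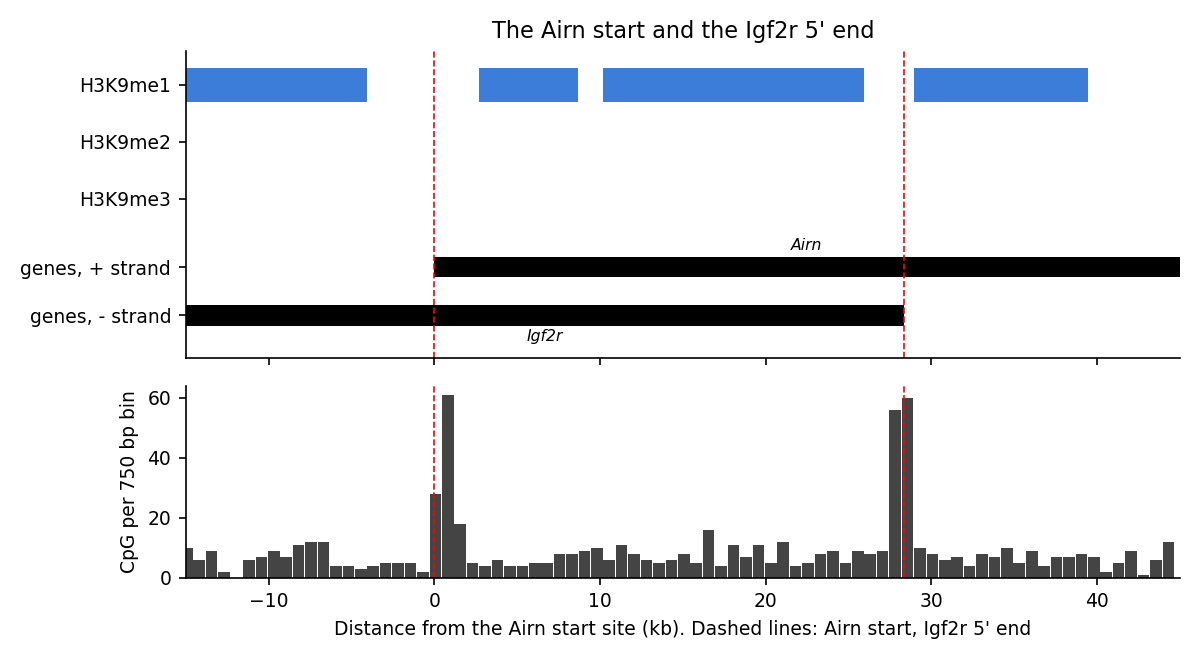
Regions of each mark (blocks) and the Igf2r and Airn spans (black) above the number of CpG per 750 bp bin (bars from 0), by distance from the Airn start in kb, with dashed lines at the Airn start and at the Igf2r 5' end, 28353 bp apart. Both lines fall in breaks of H3K9me1, next to the 2 tallest groups of CpG bars, and no H3K9me2 or H3K9me3 region is in view.

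The window held 26 such interruptions of H3K9me1, from 0.75 kb to 11.25 kb wide with a median of 2.25 kb, 85.5 kb in sum. Of these, 7 held the 5' end of a protein-coding or antisense gene, namely Map3k4, Airn, Igf2r, Acat3, Acat2, Wtap and the pair Mrpl18 and Tcp1. The Airn interruption was therefore not the widest, since the one at Wtap and another inside Airn (12780751 to 12792000) each measured 11.25 kb. Over chromosome 17, the start base was free of H3K9me1 in 106 of the 315 protein-coding 5' ends that had H3K9me1 within 1 kb (33.7%). Igf2r was among these 315, whereas Airn is not protein-coding and had no H3K9me1 within 1 kb.

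The shape at these starts was set beside 1056 protein-coding 5' ends of chromosome 17. In 460 of them the CpG observed-over-expected ratio within 500 bp either side of the 5' end was at least 0.6, as it was at Igf2r (0.903) and Slc22a3 (0.632). At these CpG-rich 5' ends H3K9me1 covered the start base in 2.61% of genes, but 46.7% at 4 kb upstream and 37.8% at 4 kb downstream. At the 596 CpG-poor 5' ends, the class of Slc22a2 (0.299) and Plg (0.219), it covered 33.1% at the start base, 35.9% upstream and 40.1% downstream. Airn (0.525) is not protein-coding and is in neither class, and its CpG-dense stretch runs past the 500 bp window. For H3K9me2 the start base was covered in 2.83% of CpG-rich and 14.9% of CpG-poor 5' ends, and for H3K9me3 in 5% and 12.2%. The uncovered Igf2r start was thus the common state of its class, and the Slc22a3 start, covered by each mark, the rare one. Genes that lie side by side share regions, and these shares are descriptions across genes.

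**Figure D5:**
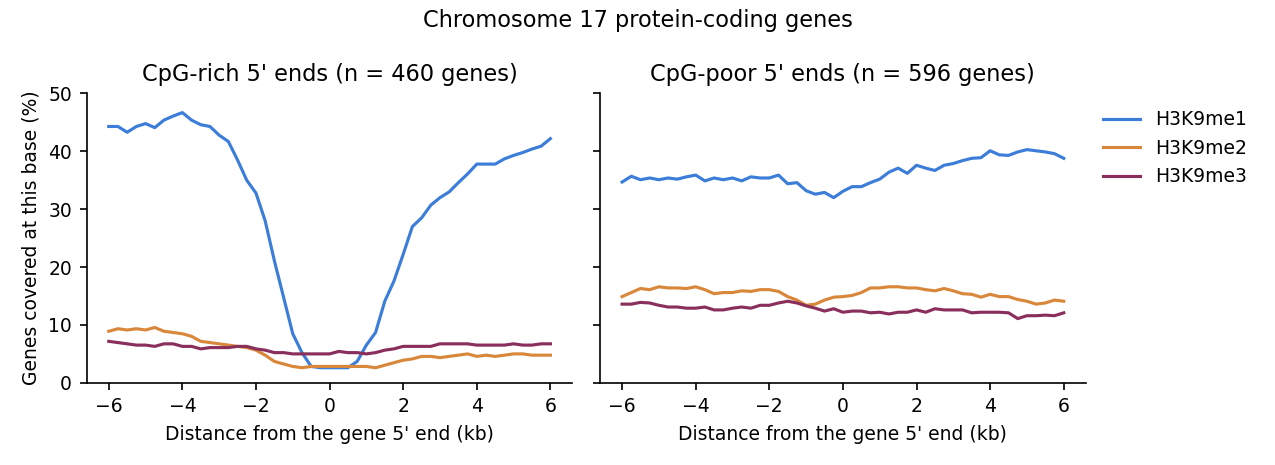
Share of chromosome 17 protein-coding genes (%) covered by each mark at positions up to 6 kb either side of the gene 5' end, for 460 CpG-rich and 596 CpG-poor 5' ends. H3K9me1 drops to 2.61% at CpG-rich 5' ends and is 33.1% at CpG-poor ones.

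The other 13 protein-coding genes of the window fell along a like division, with some between. Counting every annotated start, 12 met H3K9me1, 6 met H3K9me2 and 5 met H3K9me3, 6 met H3K9me1 alone and Mrpl18, a mitochondrial ribosomal protein gene, met none. Mas1, a G protein-coupled receptor gene on the minus strand (12841079 to 12868143), overlaps the 3' end of Airn, which ends at 12860136. Its span was covered to 94.5%, 87.5% and 81.9%, and part of the distal Airn marks thus lay in both genes. The receptor gene Mrgprh, past Mas1, was covered to 100% by each mark. Past Mrgprh, Pnldc1 was covered to 100% by H3K9me1 and to 0% by the others. Mrpl18, Tcp1, Acat3, Acat2 and Wtap likewise had H3K9me1 over 58.1% to 91.6% of their spans and no base of H3K9me2 or H3K9me3. Among them Tcp1 encodes a chaperonin subunit, Acat2 an acetyl-CoA acetyltransferase and Wtap a subunit of the RNA methyltransferase complex. Sod2, the mitochondrial superoxide dismutase gene, was covered to 88.7%, 53.6% and 67.2%, with H3K9me1 alone at its 5' end. Gpr31b, a receptor gene at the far end of the Airn-side flank, was covered to 100% by each mark. On the Plg side, Map3k4, a stress-kinase gene, was covered to 90.9%, 2.47% and 24.7%, and Agpat4, an acyltransferase gene, to 84.6%, 36.4% and 14.1%. The receptor genes thus went with the transporters in their marks, the genes from Pnldc1 to Wtap with Igf2r, and Sod2 and Agpat4 lay between.

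Genes related to the members by family or pathway were scored in the same way. Of 22 Slc22a genes outside the window, 17 had a start met by H3K9me1 (77.3%), 14 by H3K9me2 (63.6%) and 10 by H3K9me3 (45.5%), where the shares of all genes were 21.4%, 11.5% and 12.0%. However, 19 of the 22 lie on the 9 broadly covered chromosomes. Slc22a19, Slc22a26 to Slc22a30, Slc22a8 and Slc22a6 also lie close together on chromosome 19, from 7673061 to 8628299. Neighbours can share regions, so these shares do not count independent genes. The median covered span was 60.7%, 53.1% and 13.5%. All 3 marks were found among the starts of 8 of these genes, not necessarily at the same start. Among them were Slc22a12, a urate transporter gene, Slc22a13, Slc22a16, a carnitine transporter gene, and Slc22a22. Slc22a16 was covered to 100%, 97.8% and 100% and Slc22a22 to 63.4%, 84.9% and 81.4%, whereas Slc22a12 was covered to 100%, 73.5% and 0.445% and Slc22a13 to 71.9%, 71.9% and 41.9%. No mark was found at the starts of Slc22a15, Slc22a18, Slc22a23 and Slc22a26. The first 3 of these had no covered base, and they lie on chromosomes 3, 7 and 13, outside the broadly covered ones. Slc22a26 was covered to 35.6%, 94.6% and 59.0% away from its starts.

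Of the 8 other genes of the plasminogen system, 2 had a start met by H3K9me1 (25%), 0 by H3K9me2 and 1 by H3K9me3 (12.5%). The shares of all genes were 21.4%, 11.5% and 12.0%, so the list lay near the background. The H3K9me1-marked genes were Serpinf2, the plasmin inhibitor gene (58.4% of its span in H3K9me1), and Plgrkt, a plasminogen receptor gene (42.0%). Serpine2, a protease inhibitor gene, had H3K9me3 at a start and over 27.5% of its span. The activator genes Plat and Plau had no marked start and no H3K9me2 or H3K9me3, with H3K9me1 over 69.1% and 68.9% of their spans. Plaur, the urokinase receptor gene, and the inhibitor gene Serpinb2 had no covered base, and lie on chromosomes 7 and 1, outside the broadly covered ones. H3K9me2 thus covered 0% of the span of each of these 8 genes, beside 92.6% of Plg and a median of 0% over all genes, and 5 of the 8 lie on broadly covered chromosomes.

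In the insulin-like growth factor and mannose 6-phosphate pathway, 3 of 17 genes had a start met by H3K9me1 (17.6%), 2 by H3K9me2 (11.8%) and 2 by H3K9me3 (11.8%), near the shares of all genes. Gnptab, which encodes a subunit of the enzyme that makes the mannose 6-phosphate tag, had all 3 marks among its starts. Its span was covered to 92.1%, 14% and 11%. There was no mark at the starts of 12 genes, among them Igf2, the ligand of Igf2r, Igf1r, the receptor that signals for it, Igfbp1, a binding protein gene, and M6pr, the other mannose 6-phosphate receptor gene, none of which had a covered base. Gnptg, a further subunit gene of the tagging enzyme, also had no marked start but had H3K9me1 over 72.4% of its span. Of the 17 genes, 10 lie on broadly covered chromosomes, and 6 of these 10 had no marked start. Igf2 and Igf1r, on chromosome 7, and M6pr, on chromosome 6, are not among these 10. The median span was covered to 11.9%, 0% and 0%. Igf2r, with H3K9me1 over 87.8% of its span, was therefore above this median for H3K9me1.

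Among 32 imprinted genes of other loci, 6 had a start met by H3K9me1 (18.8%), 4 by H3K9me2 (12.5%) and 9 by H3K9me3 (28.1%), beside 21.4%, 11.5% and 12.0% of all genes. The first 2 shares were near the background. The H3K9me3 share counts Kcnk9, Trappc9 and Peg13, neighbours on chromosome 15, as separate genes. Kcnk9, Trappc9 and Plagl1 each had all 3 marks among their starts. Kcnk9, a potassium channel gene, was covered to 87.6%, 100% and 99.2%, Trappc9 to 95.4%, 86.2% and 70.9%, and Plagl1, a zinc finger gene, to 90.6%, 89.5% and 93.7%. The start of Peg13, a non-coding RNA gene inside Trappc9, met H3K9me3 but neither of the other marks, and its span was covered to 61.4%, 61.4% and 100%. No mark was found at the starts of 20 genes, among them Cdkn1c, Copg2, Dlk1 and H19. These named genes lie on chromosomes 6, 7 and 12, outside the broadly covered ones. Of the 32 genes, 10 lie on broadly covered chromosomes, and 1 of these 10 was unmarked. The median covered span over the 32 genes was 0% for each mark, as it was over all genes.

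The genes most like each member were sought among 14151 protein-coding genes outside the window with a span of at least 10 kb, by the Euclidean distance, in percentage points, between the shares of the span in the 7 combinations of the marks. For Slc22a3 they were Mroh5 (distance 1.48), Pde1b (2.33) and Nipal2 (2.49), and 119 genes lay within 10 points. For Slc22a2 they were Gm44579 (1.75), Nipal2 (1.83) and Il20ra (2.07), with 110 within 10 points, and for Plg they were Col13a1 (2.28), Icosl (2.49) and Sobp (3.08), with 137. For Igf2r they were Ifngr1 (2.15), Ttc13 (2.25) and Stk11 (2.53), and 788 genes lay within 10 points. For Airn the nearest, Ndrg4, was at 7.89, followed by Zfp280b (8.32) and Slc38a8 (9.14), and 6 genes lay within 10 points. Ifngr1 was covered to 86.0%, 0% and 4.10%, while Ndrg4 was covered to 80.0%, 40.7% and 30.9%. The H3K9me1-only pattern of Igf2r was thus shared by more genes than the pattern of any other member, and that of Airn by the fewest. Long spans average over more bins, and the number of like genes was not set against span length.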

How the data were processed

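ChIP-seq reads of 8 samples (2 replicates each of input, H3K9me1, H3K9me2 and H3K9me3, from MEFs labelled wild type) were aligned by the authors to mm10 (GRCm38) with BWA 0.7.1, the version given in the submitters' processing notes, and enriched regions were called with histoneHMM. The deposited files hold positions alone, as 3 columns with the chromosome, start and end of each region. How replicates and input entered the call, and the posterior threshold, are not given in the sources used here. Starts were read as 1-based. The members and the gene lists were chosen with earlier results of these data known.

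Covered bases were counted over gene spans, merged exons and the window with 200 kb flanks, and start sites were scored 1 kb either side of each annotated start (GENCODE M21, GRCm38). A region meeting a window by 1 bp counted. Genes named were the 5 members, the protein-coding genes of the window and the 3 genes most like each member. Also named, in alphabetical order, were up to 4 genes of each list with all 3 marks among their starts or with no marked start. Serpinf2, Plgrkt, Serpine2, M6pr and Peg13 were named after their values were seen. Some genes that this rule would name are not reported here, and they stay in the counts. No test across genes was run, since each mark has 1 list for both replicates. Wilson intervals at 95% counted regions for overlap shares and 750 bp bins for covered shares. They treat neighbouring regions and bins as independent, although these lie in 1 window. The counting was tested on simulated data. Alternatives covered start-site windows, starts counted, region width, joining, flanks, exons and 0-based starts. The counts were made in Python 3.11.15 with NumPy 2.4.6, the intervals with SciPy 1.17.1 and the plots with Matplotlib 3.10.9.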

Additional observations from a re-analysis of the deposited data

How the results depend on the processing

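With the 5' end of each gene in place of all annotated starts, Airn lost its call for all 3 marks and Igf2r its call for H3K9me3. For H3K9me3, 3 of 5 members were then met rather than 5, because these calls rest on inner transcripts. With exons only, H3K9me2 covered 88.4% of Airn rather than 37.1%. Of 120 start-site calls of single members recomputed, 5 changed, and of 90 covered spans, 21 moved past their counting interval. Joining regions up to 5 kb apart, like counting exons only, put the median covered span at 100% for each mark.

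Coverage of the window moved most with its limits. Without flanks H3K9me1, H3K9me2 and H3K9me3 covered 93.6%, 71.5% and 68.1%. With flanks of 100 kb H3K9me2 covered 58.4% and H3K9me3 52.7%, and with flanks of 500 kb H3K9me1 covered 78.5%. With protein-coding spans left out, H3K9me2 covered 62.9% and H3K9me3 53.8%, and with regions joined H3K9me1 covered 94.7% and H3K9me2 53.7%. Where 50% of an H3K9me1 region had to be shared, 29.6% met H3K9me3 rather than 48.1%. The H3K9me3 region inside Igf2r measured 3 kb, and its start-site call was lost when regions narrower than 5 kb were dropped.

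No paired analysis was possible because each mark has 1 list for both replicates, and leaving out a replicate was not run for the same reason. Depth, the spread between replicates and the parental copy behind each region are unknown from the lists.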
